A study of Mus musculus with 5 samples.

Results

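The 10 genes described here are known as targets of the androgen receptor, the hormone-activated transcription factor on which prostate epithelium depends, and were measured in bulk RNA from mouse dorsolateral prostate. They are Fkbp5, Tsc22d3, Zbtb16, Sgk1, Ndrg1, Steap4, Abcc4, Camkk2, Homer2 and Ell2. They were chosen by name and matched by symbol to the gene identifiers of the deposited tables, which list 51912 genes, and all 10 passed the filter on low counts. The comparison asks whether expression of these targets differs after induced loss of the growth hormone receptor, with 18590 genes tested in all.

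All mice were males of 3 months with the genotype Ghrflox/flox, in which loxP sites flank part of both copies of Ghr, the gene of the growth hormone receptor. For the 3 control samples the labels name no other allele. The 2 samples labelled Ghr deletion, called deletion-labelled below, came from mice of genotype Ghrflox/flox;ROSA26Cre-ERT2+/0, in which a tamoxifen-activated Cre recombinase is made from the ROSA26 locus, a locus active in most cell types and not only in the prostate. Both groups were given tamoxifen at 250 mg/kg on each of 5 days, so the drug, itself a ligand of oestrogen receptors, is shared by controls. Tissue was collected 1 month later. The labels name Cre for the deletion-labelled mice only, so effects of Cre and of Ghr loss cannot be told apart. The labels call the samples biological replicates, with no animal identity given, so p-values measure the spread between these samples.

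The androgen receptor is held in the cytoplasm by a chaperone complex, enters the nucleus when testosterone or dihydrotestosterone binds, and then attaches to DNA at hormone response elements, which are inverted repeats of a short half-site. The glucocorticoid receptor binds the same elements, so several of these genes, among them Fkbp5, Tsc22d3, Zbtb16 and Sgk1, respond to either hormone depending on the tissue. In the prostate, androgen is known to maintain luminal secretory cells and also acts on stromal smooth muscle and fibroblasts.

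The response element was looked for in the promoters of the members, because it is the sequence that the receptor binds. RefSeq promoter windows of GRCm38.p6, reaching from 250 bases before to 50 bases after a start site, matched 8 of the 10 members with 17 windows. Ndrg1 and Zbtb16 did not match. The half-site AGAACA, or TGTTCT on the other strand, was found in 5 of 17 member windows (29.4%), belonging to Sgk1, Tsc22d3 and Abcc4, against 19.0% of 32851 windows in all. Sgk1 had more windows, and more with a half-site, than any other member. Counted by gene, a half-site was found for 3 of 8 members and for 5750 of 27025 genes in all. The full inverted repeat, AGAACA and TGTTCT separated by any 3 bases, was found in 1 member window, for Sgk1, and in 3 of all windows (0.00913%), the others belonging to Acnat2 and Gm35041. In the stretches below, read 5′ to 3′ along the gene and upstream of the start site, capitals mark each half-site. For Sgk1 only the window with the full repeat is shown, and its other windows with a half-site are not.

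Sgk1, chr10:21993640-21993745, plus strand: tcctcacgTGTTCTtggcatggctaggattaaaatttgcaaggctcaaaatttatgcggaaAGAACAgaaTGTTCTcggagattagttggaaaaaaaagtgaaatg

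Tsc22d3, chrX:140600672-140600737, minus strand: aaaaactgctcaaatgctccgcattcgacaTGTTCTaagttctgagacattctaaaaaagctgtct

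Abcc4, chr14:118677019-118677084, minus strand: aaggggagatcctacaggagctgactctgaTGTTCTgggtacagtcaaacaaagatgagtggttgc

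The Sgk1 repeat, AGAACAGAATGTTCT at positions 21993701 to 21993715 of chromosome 10, begins 189 bases before 1 annotated start site of the gene and 965 bases before another, and it holds 2 of the 3 half-sites of its window. A match of letters does not show that a receptor was bound, and the windows cover only the region next to each start site.

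The libraries held 19517831 to 41553558 expected counts, and 1 CPM (the counts relative to library size scaled by TMM) stood for 16.2 to 45.3 counts. Every member was well counted, from 200 expected counts for Steap4 in control replicate 2 to 57455 for Sgk1 in control replicate 3. Ghr, counted over the whole gene, measured 10.1, 11.8 and 13.2 CPM across the control replicates and 21.5 and 10.2 CPM across the deletion-labelled ones, so its level does not separate the groups, and directions below are those of the deletion-labelled libraries. The libraries also differed in the RNA of tissue markers. Without overlap between groups, 6 of 8 seminal vesicle markers were lower in the deletion-labelled libraries. The 8 summed to 234412 to 451761 CPM in controls and 104999 to 183272 CPM in the other group. These sums hide a split among the controls. For all 6, control replicate 3 was the lowest control, and Svs1 stood at 32915, 22520 and 58.6 CPM in control order, against 0.0454 and 7.9 CPM. Most of the sum of control replicate 3 was Svs2 (140510 CPM), which overlapped. Pate4 overlapped as well, with 10520 to 33092 CPM in controls against 20932 and 30450 CPM. Over all tested genes, 10.8% were higher and 12.5% lower without overlap. The split was not limited to these markers. Across tested genes, log2 CPM of control replicate 3 correlated at 0.972 and 0.971 with Ghr deletion replicates 1 and 2. Those 2 correlated at 0.9641 with each other. With control replicates 1 and 2, control replicate 3 correlated at 0.9298 and 0.8856. Secretory markers of prostate luminal cells were highest in control replicate 2. Pbsn, the androgen-driven probasin gene, stood at 11.1, 475 and 0.816 CPM in control order, against 0.0454 and 8.76 CPM in deletion-labelled order, and Hoxb13, a transcription factor of the prostate, had 0 counts in control replicate 3 and Ghr deletion replicate 1. Tgm4, a secreted transglutaminase, ran at 17.9, 1604 and 2.93 CPM over the control replicates, with 0.749 and then 162 CPM in the deletion-labelled pair. The 12 distal luminal markers summed to 1061 to 3401 CPM in controls and 1138 to 1637 CPM in the other group. Cd24a gave the largest part of each sum except in control replicate 2, where Tgm4 did. In Ghr deletion replicate 1, Cd24a gave 1163 of the 1637 CPM, so the sums do not show the level of the secretory markers. Of 8 adipocyte markers, 6 were higher without overlap, but each of these 6 stood at 1.91 CPM or less in every control, and Lep at 0. The 8 summed to 53.0 to 99.7 CPM in controls and 71.6 to 114 CPM in the other group. Plin4, which overlapped, gave the largest part of each sum. Of 8 basal markers, 4 were lower without overlap (435 to 1053 CPM summed, against 400 to 581), and of 7 tested proximal luminal markers 3 were higher and 3 lower without overlap (80.6 to 151 CPM summed over all 8, against 68.6 to 73.0). The part of tissue content in the results below was not tested. In bulk RNA fewer cells of a type and less RNA per cell cannot be told apart.

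By edgeR's quasi-likelihood test 0 of the 10 members were called in either direction, over an all-gene background of 0% higher and 0% lower. As the test called no gene at all, a member that was not called is not thereby shown to be unchanged. At an unadjusted p under 0.05 there was 1 member, Homer2, on the lower side, where 1.16% of all tested genes lay on the higher side and 3.10% on the lower side (4.26% together). DESeq2 also called 0 members, against 0.108% of genes higher and 0.328% lower, and put 2 members, Homer2 and Zbtb16, at an unadjusted p under 0.05, against 6.69% of all genes. The fold changes of 7 members were positive and those of 3 were negative, with a median log2 fold change of 0.19, where the median of all tested genes was -0.01 and 49.4% of genes were positive. The members' median less that of all genes was 0.20, with 0.03 without control replicate 2, 0.13 without control replicate 1, 0.33 without control replicate 3 and -0.11 with control replicate 3 as the only control. The 2 groups did not overlap in 1 member that was higher, Ndrg1, and in 2 that were lower, Homer2 and Zbtb16, where 10.8% of all tested genes were higher without overlap and 12.5% lower (23.3% together). These counts are on the TMM scale. With library size only, 4 members were higher and 0 lower, where 46.8% of all tested genes were higher and 1.61% lower. By TPM, 8 members were higher and 0 lower, where 78.5% of genes were higher and 0.307% lower. Relative to TMM, the fold change of the median gene moved up by 0.59 (log2) with library size only and by 0.87 on log2(TPM + 1).

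**Figure D1:**
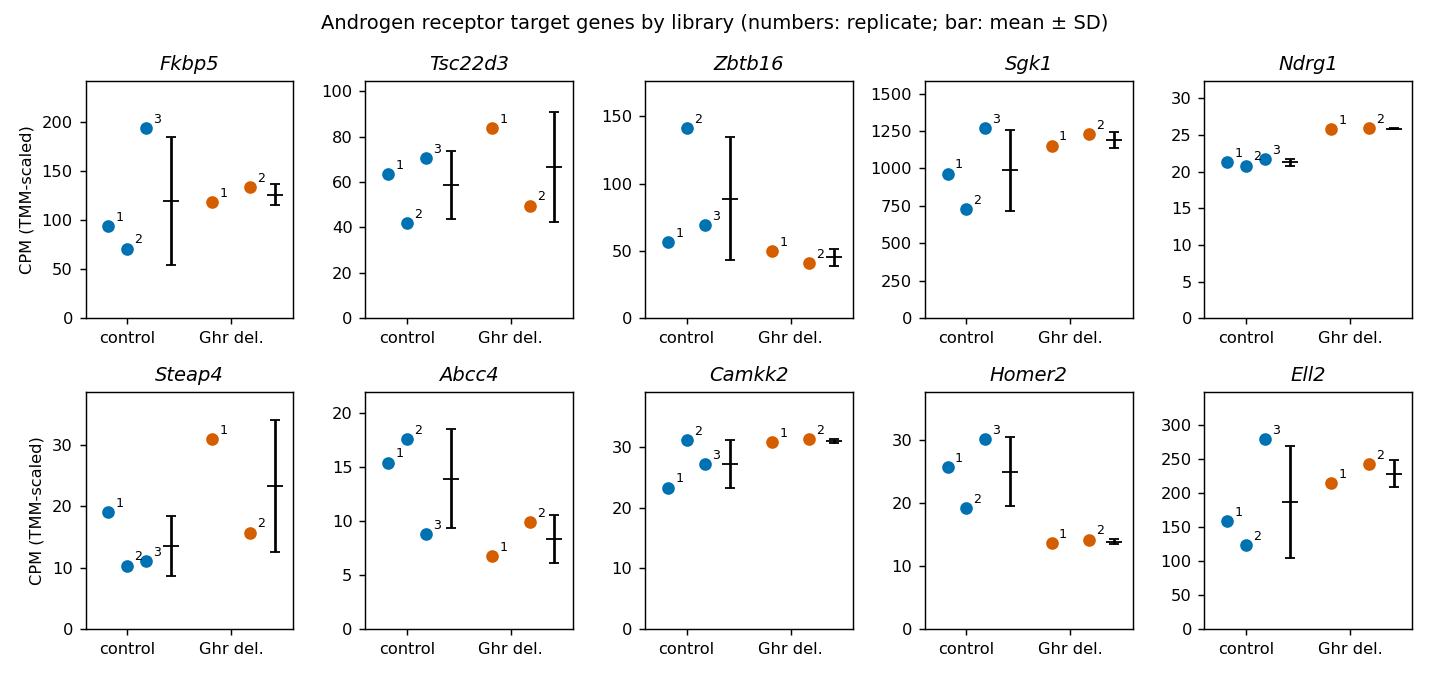
CPM of each member (y axis, from 0, own scale per gene) in the 3 control libraries (blue) and the 2 libraries labelled Ghr deletion (orange, "Ghr del."), with replicate numbers beside the points and the mean ± SD beside each group. Both deletion-labelled libraries lie above every control for Ndrg1 and below every control for Homer2 and Zbtb16, and the groups overlap for the other 7 (TMM scale; with library size only or TPM no member is lower without overlap).

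Fkbp5 (ENSMUSG00000024222, GRCm38 chromosome 17, 28399094 to 28517527, minus strand) encodes a co-chaperone of steroid receptors that is itself induced by them and dampens glucocorticoid receptor activity. Control replicates 1, 2 and 3 gave 93.4, 70.8 and 193 CPM, and deletion-labelled replicates 1 and 2 gave 118 and 133 CPM. The highest and the lowest libraries were both controls, 2.73-fold apart, and both deletion-labelled libraries lay between them. The log2 fold change, positive where deletion-labelled libraries were higher, was 0.07 (SE 0.45, 95% interval -1.02 to 1.17, edgeR adjusted p = 0.973). The interval spans a fold of 0.492 to 2.25, which covers a difference in either direction, and the value was -0.05 with library size only, 0.60 without control replicate 3 and -0.19 without control replicate 2.

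Tsc22d3 (ENSMUSG00000031431, chromosome X, 140539528 to 140600659, minus strand) encodes GILZ, a leucine zipper protein that mediates anti-inflammatory glucocorticoid effects. It reached 63.5, 41.8 and 70.4 CPM in control replicates 1 to 3, and 83.6 and 49.6 CPM in deletion-labelled replicates 1 and 2. The libraries labelled Ghr deletion held the highest value and the value next to the lowest, so they differed from each other by more than their mean differed from that of the controls (means of 66.6 ± 24.1 CPM, SD, n = 2, and 58.5 ± 14.9 CPM, SD, n = 3). On the log2 scale the fold change was 0.19 (SE 0.33, 95% interval -0.63 to 1.00, edgeR adjusted p = 0.918). Leaving out deletion-labelled replicate 1 gave -0.24, and leaving out its partner gave 0.51. Without control replicate 2 the value was -0.01, and without control replicate 3 it was 0.34.

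Zbtb16 (ENSMUSG00000066687, chromosome 9, 48654297 to 48836222, minus strand) encodes PLZF, a zinc finger transcription factor strongly induced by androgen and glucocorticoid. It measured 56.3, 141 and 69.0 CPM across the control replicates and 49.7 and 40.9 CPM across the deletion-labelled ones. Control replicate 2 stood apart from the other controls, and the deletion-labelled libraries were the lowest of the 5. The log2 fold change was -0.97 (SE 0.43, 95% interval -2.04 to 0.10, unadjusted p = 0.0684 and adjusted p = 0.874 by edgeR). It was -0.47 without control replicate 2 and -0.60 with control replicate 3 as the only control. Without control replicate 1 it was -1.21, without control replicate 3 it was -1.13, and with effective lengths as offsets it was -1.25.

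The reads of Zbtb16 in control replicate 2 were also assigned to a different mix of transcripts. RSEM reports for each gene and library a length averaged over its transcripts by abundance, and for Zbtb16 this was 3048 bases in control replicate 2 and 3903 to 4219 bases in the other 4 libraries. The tables list 2 transcripts for the gene, of 5114 and 2505 bases in GENCODE M21, which may not be the release the authors used. With 2 transcripts, a shorter average corresponds to a larger share assigned to the shorter one. Among the members with more than 1 transcript, the length was smallest in control replicate 2 also for Tsc22d3, Camkk2, Homer2 and Ell2. Ell2 had 2440 bases there and 2610 to 3129 bases elsewhere, and Homer2 had 3184 bases there and 3350 to 4041 bases elsewhere. Of all tested genes with more than 1 transcript, 37.9% had their shortest length in this library.

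Sgk1 (ENSMUSG00000019970, chromosome 10, 21882184 to 21999903, plus strand) encodes a kinase that raises sodium channel and transporter activity and carries the full response element shown above. It stood at 966, 727 and 1267 CPM in control order, against 1152 and 1230 CPM in deletion-labelled order. Control replicates 1 and 2 were the lowest and control replicate 3 was the highest, so the groups overlapped. The log2 fold change was 0.27 (SE 0.36, 95% interval -0.61 to 1.16, edgeR adjusted p = 0.891). It was 0.09 without control replicate 2, 0.49 without control replicate 3 and -0.09 with control replicate 3 as the only control.

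Of these 4 genes shared with glucocorticoid signalling, none passed the edgeR test, which called no gene at all. For Fkbp5 and Sgk1 the controls held both the lowest and the highest library. The remaining 6 members are described next.

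Homer2 (ENSMUSG00000025813, chromosome 7, 81600481 to 81707527, minus strand) encodes a scaffold that links surface receptors to intracellular calcium release. It reached 25.7, 19.2 and 30.2 CPM in control replicates 1 to 3 (25.1 ± 5.53, SD, n = 3), and 13.6 and 14.2 CPM in deletion-labelled replicates 1 and 2 (13.9 ± 0.455, SD, n = 2). Both deletion-labelled libraries were lower than every control, and the gap to the nearest control was wider than the distance between them. The fold was 1.80 in favour of the controls (log2 fold change -0.85, SE 0.25, 95% interval -1.47 to -0.23), with an unadjusted p of 0.0154 and an adjusted p of 0.874 by edgeR over all genes. With control replicate 3 as the only control the Homer2 value was -1.12, a lone control being assumed to vary like the other group. On log2(TPM + 1) the value was 0.42 as fitted and -0.46 relative to all genes. The part of tissue content in this difference was not tested. An antisense gene, Gm44570, shares 525 exonic bases with Homer2, or 4.16% of its exonic bases, and held at most 28.1 expected counts in any library, where Homer2 held 374 to 1370.

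Ndrg1 (ENSMUSG00000005125, chromosome 15, 66929318 to 66969640, minus strand) encodes a differentiation and stress-response protein that is also induced by hypoxia. It measured 21.3, 20.8 and 21.7 CPM across the control replicates and 25.8 and 25.9 CPM across the deletion-labelled ones. The controls agreed closely, with a highest over lowest ratio of 1.04, where the median ratio was 1.80 for the members and 1.72 for tested genes with no control at 0. The groups did not overlap, yet the difference was small (log2 fold change 0.29, SE 0.17, 95% interval -0.13 to 0.70), and it did not pass by edgeR (unadjusted p = 0.146, adjusted p = 0.874), which shares its estimate of spread among genes.

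Steap4 (ENSMUSG00000012428, chromosome 5, 7960457 to 7982213, plus strand) encodes a metalloreductase that reduces iron and copper for uptake. It stood at 19.1, 10.3 and 11.1 CPM in control order, against 31.0 and 15.7 CPM in deletion-labelled order. Ghr deletion replicate 1 was the highest library, and Ghr deletion replicate 2 lay below control replicate 1. The log2 fold change was 0.79 (SE 0.40, 95% interval -0.20 to 1.79, edgeR adjusted p = 0.874), the largest positive value among the members. Leaving out deletion-labelled replicate 1 gave 0.22, and leaving out the other gave 1.20. On log2(TPM + 1) Steap4 passed the limma test against 0 (1.66 as fitted, adjusted p = 0.0437), as did 12% of all genes on the higher side, and its value less the shift of all genes, 0.78, was not tested.

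Abcc4 (ENSMUSG00000032849, chromosome 14, 118482692 to 118706219, minus strand) encodes an efflux pump for cyclic nucleotides and conjugated steroids. It reached 15.4, 17.6 and 8.76 CPM in control replicates 1 to 3, and 6.76 and 9.89 CPM in deletion-labelled replicates 1 and 2. Control replicates 1 and 2 were high, and control replicate 3 lay between the deletion-labelled libraries. The log2 fold change was -0.74 (SE 0.37, 95% interval -1.65 to 0.18, edgeR adjusted p = 0.874). It was -0.49 without Ghr deletion replicate 1, and with control replicate 3 as the only control it was -0.07.

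Camkk2 (ENSMUSG00000029471, chromosome 5, 122731170 to 122779409, minus strand), a calcium-dependent kinase that activates AMPK, measured 23.3, 31.1 and 27.2 CPM across the control replicates and 30.8 and 31.3 CPM across the deletion-labelled ones. Ell2 (ENSMUSG00000001542, chromosome 13, 75706757 to 75772364, plus strand), a transcription elongation factor, stood at 158, 123 and 279 CPM in control order, against 214 and 242 CPM in deletion-labelled order. For both genes 1 control reached the level of the deletion-labelled libraries or passed it. The log2 fold changes were 0.19 for Camkk2 (SE 0.20, 95% interval -0.30 to 0.69, edgeR adjusted p = 0.879) and 0.29 for Ell2 (SE 0.39, 95% interval -0.66 to 1.24, edgeR adjusted p = 0.89). Camkk2 was 0.09 without control replicate 1 and 0.30 without control replicate 2. Ell2 was 0.06 without control replicate 2, 0.18 without control replicate 1, 0.70 without control replicate 3 and -0.29 with control replicate 3 as the only control.

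**Figure D2:**
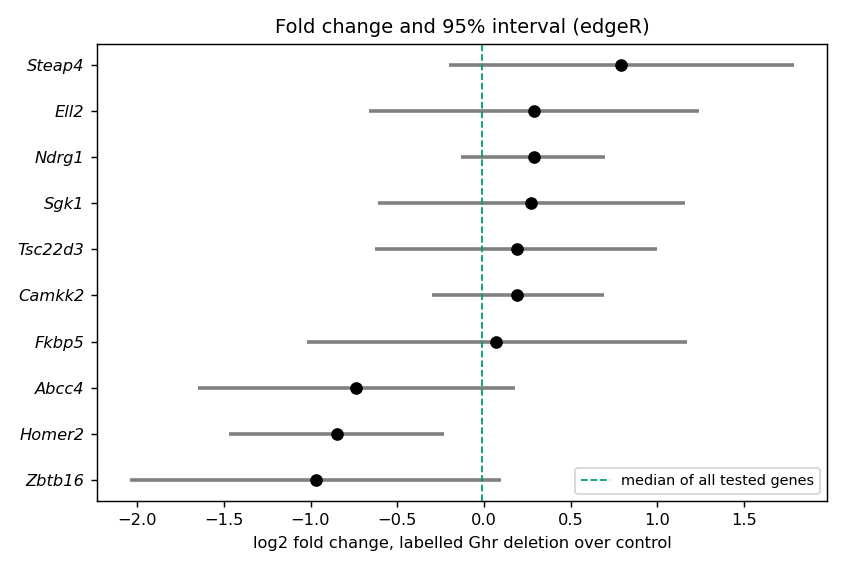
Log2 fold change of the deletion-labelled libraries over the controls (x axis) for each member (y axis), with points for the edgeR estimate, bars for its 95% interval and a dashed line at the median of all tested genes. The interval of Homer2, from -1.47 to -0.23, is the one that does not reach 0.

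Per length, the members covered a wide range. By TPM, which divides by transcript length and so allows levels to be compared between genes of 1 library, Sgk1 ranked first and Ell2 next to it in all 5 libraries, and Abcc4 ranked last in all 5. Sgk1 had a median of 488 TPM (83.1 to 894 over the 5 libraries), Ell2 55.9 TPM, Fkbp5 46.9 TPM and Tsc22d3 24.6 TPM. Below these came Zbtb16 at 8.98, Ndrg1 at 4.75, Camkk2 at 4.4, Homer2 at 3.80, Steap4 at 2.62 and Abcc4 at 1.14 TPM. Ranges of neighbours overlapped at every step, and TPM of every member but Zbtb16 was lowest in control replicate 2, where the 20 most abundant genes took 65.3% of counts. That share was 50.5% and 42.7% in control replicates 1 and 3, and 27.4% and 38.2% in Ghr deletion replicates 1 and 2. The groups therefore did not overlap in it. Within libraries, Sgk1 exceeded Ell2, Ell2 exceeded Fkbp5 and Fkbp5 exceeded Tsc22d3 in 5 of 5, while Ndrg1 exceeded Camkk2 in 4 of 5 and Camkk2 exceeded Homer2 in 3 of 5.

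Some members varied together across libraries in an order that does not follow the groups. Fkbp5, Sgk1 and Ell2 had 1 and the same order, lowest in control replicate 2, then control replicate 1, Ghr deletion replicates 1 and 2, and highest in control replicate 3. This order was seen in 377 of all tested genes (2.03%), and the choice to look at it was made after the values were seen. It was also that of Glul, a glucocorticoid-induced glutamine synthetase (758 to 1671 CPM), of Hpgd, a prostaglandin-degrading enzyme (74.4 to 248 CPM), of Bnip3, the mitophagy receptor (5.91 to 27.0 CPM), of Ckm, the muscle creatine kinase (2.05 to 12.5 CPM), and of Myh11, the smooth muscle myosin heavy chain (1415 to 3990 CPM), which are all the genes with this order in the pathway and marker lists. The sum of 8 smooth muscle markers, to which Myh11 gave the largest part, followed it as well, with 5623, 2391 and 7772 CPM over control replicates 1 to 3, and 6428 and 6827 CPM over the deletion-labelled pair. Of the 8, Myh11 alone had this order by itself, and Tagln, Des and Actg2 were highest in control replicate 1. The part of smooth muscle content in the levels of these 3 members was not tested. In all, 6 of 10 members were lowest in control replicate 2, as were 33.5% of tested genes, and Zbtb16 and Abcc4 were highest there, as were 32.9% of tested genes.

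**Figure D3:**
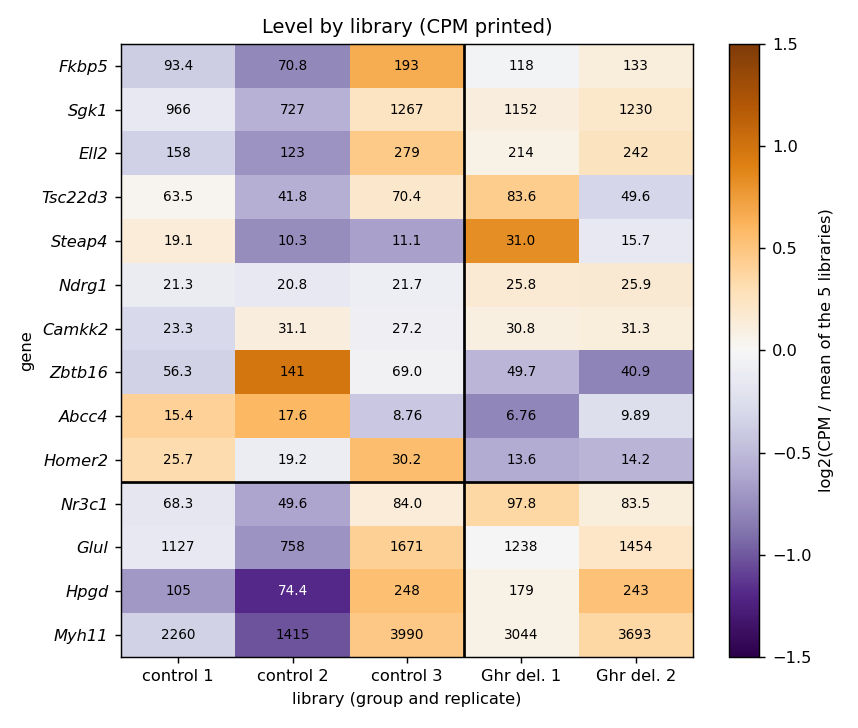
CPM of the 10 members (above the line) and of Nr3c1, Glul, Hpgd and Myh11 (below it) in each library, printed in the cells and coloured by the log2 ratio to the gene's mean over the 5 libraries. Fkbp5, Sgk1 and Ell2 share their lowest library, control replicate 2, and their highest, control replicate 3, with Glul, Hpgd and Myh11, while Zbtb16 is highest in control replicate 2.

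The glucocorticoid receptor gene, Nr3c1, measured 68.3, 49.6 and 84.0 CPM across the control replicates and 97.8 and 83.5 CPM across the deletion-labelled ones (log2 fold change 0.43, SE 0.27, edgeR adjusted p = 0.874). It was lowest in control replicate 2 and highest in Ghr deletion replicate 1, and the groups overlapped.

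Of 21 listed genes of the receptor pathway, which holds pioneer factors, chaperones, coregulators and ligand-making enzymes, 19 were tested and 0 were called, with a median log2 fold change of -0.18. The enzyme genes Hsd17b3 and Hsd3b1, which act in testosterone synthesis, had 0 counts in every library, which allows up to 3 counts in each, and were not tested. Gata2, a factor that opens chromatin for the receptor, stood at 182, 243 and 65.6 CPM in control order, against 47.9 and 43.2 CPM in deletion-labelled order, with control replicate 3 nearer to that group than to the other controls (log2 fold change -1.84, SE 0.56, edgeR adjusted p = 0.874). Fkbp4, a co-chaperone that favours receptor activity, had 228, 167 and 211 against 125 and 141 CPM, without overlap (log2 fold change -0.60, SE 0.23).

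Of 5 genes for related receptors and corticosteroid enzymes, 0 were called, and all 5 had positive fold changes with a median of 0.59. That median is the value of Hsd11b2 (SE 0.53), which was barely counted, with 5, 4 and 13 expected counts in control order against 18 and 16. Pgr, the progesterone receptor, reached 2.04, 2.41 and 5.23 CPM in control replicates 1 to 3, and 44.1 and 4.64 CPM in deletion-labelled replicates 1 and 2, so its high value rests on Ghr deletion replicate 1. Hsd11b1, the enzyme that regenerates active glucocorticoid, had 1.73, 1.23 and 5.43 against 6.13 and 6.01 CPM, with control replicate 3 close to the deletion-labelled libraries.

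Of 28 other genes known as androgen-induced in prostate cells, 27 were tested and 0 were called, with 16 positive and 11 negative fold changes and a median of 0.08. Mak was the gene not tested. The smallest p-values belonged to Acsl3, a fatty acid activating enzyme (log2 fold change 0.40, SE 0.20), Map7, a microtubule-binding protein (-0.59, SE 0.32), and Pdlim5, a cytoskeletal adaptor (0.50, SE 0.28), each with an edgeR adjusted p of 0.874. Pbsn, whose values are given above, differed more among the controls than any member did.

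Of 20 other glucocorticoid-induced genes, all were tested and 0 were called, with 15 positive and 5 negative fold changes and a median of 0.30. Lcn2, an iron-scavenging protein of epithelial inflammation, measured 28.8, 17.0 and 73.3 CPM across the control replicates and 451 and 83.3 CPM across the deletion-labelled ones, and its distance from the controls rests mainly on Ghr deletion replicate 1 (log2 fold change 2.75, SE 0.87, edgeR adjusted p = 0.874). Sult1a1, a sulfotransferase, had 0.53 (SE 0.22), and Mt1, a metallothionein, had -0.96 (SE 0.40).

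Of 12 hypoxia-induced genes, given because Ndrg1 also belongs to that response, 12 were tested, 0 were called and the median was -0.09. The groups overlapped in all 12. Vegfa, an endothelial growth factor, had -0.79 (SE 0.50), Adm, a vasodilator peptide, had -0.76 (SE 0.52), and Bnip3, a mitophagy receptor, had 0.83 (SE 0.61), each as a log2 fold change.

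Of 19 close paralogs of the members, 17 were tested, all but Sgk2 and Steap1, 0 were called and the median was 0.03. Fkbp4 and Tsc22d2 had the smallest p-values, with Tsc22d2 at 35.1, 35.3 and 40.4 CPM over the control replicates against 50.1 and 49.9 CPM (log2 fold change 0.44, SE 0.17), and Tsc22d4 had -0.70 (SE 0.31), all with an edgeR adjusted p of 0.874. The paralogs of Homer2, chosen after their values were seen, had log2 fold changes of 0.43 for Homer1 (SE 0.27) and -0.29 for Homer3 (SE 0.30), each without overlap between groups, and the difference from Homer2 was not tested.

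**Figure D4:**
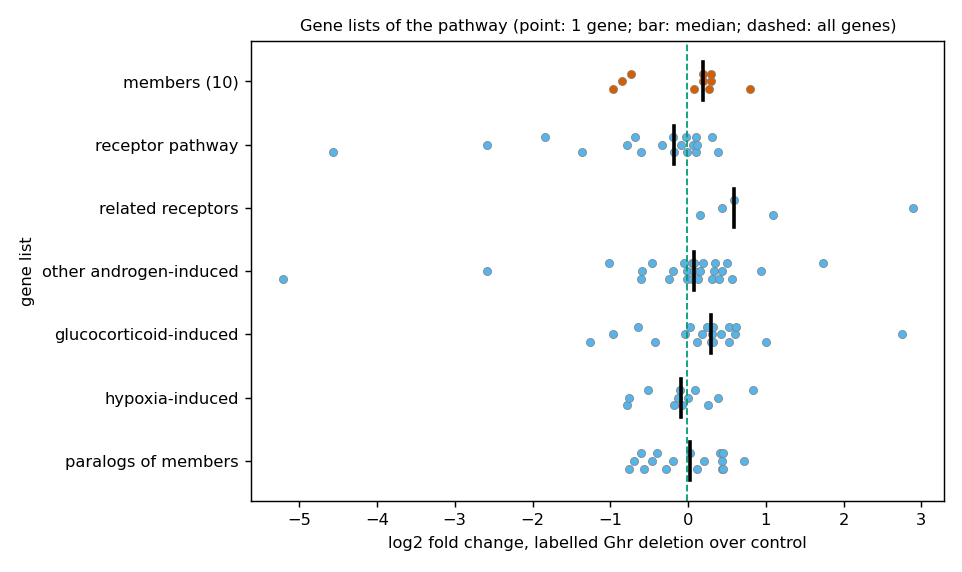
Log2 fold change of the deletion-labelled libraries over the controls (x axis) for the tested genes of each list (y axis), with 1 point per gene, a bar at the list's median and a dashed line at the median of all tested genes. The members' median is 0.19, and those of the lists run from -0.18 for the receptor pathway to 0.59 for the related receptors.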

How the data were processed

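Per the labels' protocols, RNA was extracted from frozen tissue and sequenced as strand-marked libraries of total RNA. STAR 2.5.3a, RSEM 1.3.0, bcl2fastq 2.20.422 and the build GRCm38 are listed in the submitters' processing notes. Which annotation release and which strand setting were used is not given in the sources used here. Per the file headers, the authors deposited RSEM expected counts (estimates that divide ambiguous reads among genes), TPM, and the transcript length per gene and library. Symbols were found for 99.5% of identifiers, and positions are from GENCODE M21.

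Expected counts were rounded, filtered with filterByExpr (minimum count 10), scaled by TMM and compared with edgeR 4.0.16 in R 4.3.3 (quasi-likelihood test, group as the only term, Benjamini-Hochberg over all tested genes, threshold 0.05). The SE of a log2 fold change comes from its size and F statistic. The step was tested on simulated data. The smallest two-sided p of an exact test on 5 such samples is 0.2, and model p-values are therefore given. The members, lists and alternatives were chosen with earlier results of these data known. Named genes are every member, Ghr, Nr3c1, up to 3 genes with the smallest p of each pathway list, untested list genes and, as defining prostate markers, Pbsn and Hoxb13. Others were chosen after their values were seen, and 2 genes under this rule are not reported here. Alternatives were other scalings and filters, DESeq2 1.42.0, limma 3.58.1 (voom, and log2 TPM with a pseudocount of 1 or 0.1), effective-length offsets, the 20 most abundant genes left out, libraries left out and the replicate number as a block.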

Additional observations from a re-analysis of the deposited data

How the results depend on the processing

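No member was called under any alternative except Steap4, called higher on log2(TPM + 1) (1 member, 1.66 as fitted, 0.78 less the shift of all genes, adjusted p = 0.0437 for the former), where 12% of all genes were called higher and their median rose by 0.87. That shift was 1.33 on log2(TPM + 0.1) and 0.59 with library size only, and fold changes under these 3 are given relative to it. On that relative scale Zbtb16, Homer2, Abcc4, Ndrg1, Camkk2 and Steap4 kept their direction under all 18 alternatives, with Homer2 from -1.12 to -0.46. As fitted on log2(TPM + 1), before the shift was taken off, Homer2 was 0.42, Zbtb16 0.38 and Abcc4 0.38, so their direction there rests on the subtraction. Fkbp5 ran from -0.19 to 0.60 with 1 library left out. It turned to -0.05 with library size only, -0.07 without control replicate 1, -0.19 without control replicate 2, -0.02 without Ghr deletion replicate 2 and -0.62 with control replicates 1 and 2 left out together. Tsc22d3 ran from -0.24 to 0.51 with 1 library left out, and turned to -0.01 without control replicate 2, -0.24 without Ghr deletion replicate 1 and -0.07 without control replicates 1 and 2, where Sgk1 was -0.09 and Ell2 -0.29. The members' median less that of all genes was 0.20, and became 0.64 on log2(TPM + 1), 0.03 to 0.33 with 1 library left out (0.03 without control replicate 2) and -0.11 without control replicates 1 and 2.

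Members higher without overlap numbered 4 with library size only (46.8% of all genes) and 8 by TPM (78.5%), and those lower 0 under both (1.61% and 0.307%). With 1 library left out, 1 to 4 members were higher and 2 to 3 lower, where 17.1% to 23.7% of genes were higher and 17.8% to 23.2% lower. The counts were 4 higher and 3 lower without control replicate 3, and the same with Ghr deletion replicate 2 left out. Without control replicates 1 and 2 there were 3 higher (32.8% of genes) and 5 lower (31.8%). Fewer libraries make overlap rarer.

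Over all genes, calls numbered 2 higher with no filter, 20 higher and 61 lower by DESeq2, 2234 and 60 on log2(TPM + 1), 686 and 47 on log2(TPM + 0.1), and 0 to 15 higher and 0 to 33 lower with 1 library left out, the highest without control replicate 3. In the other lists the calls were 5 lower by DESeq2, 27 higher and 6 lower on log2(TPM + 1), 14 and 7 on log2(TPM + 0.1), and 0 to 1 lower with 1 library left out. With the replicate block, 552 genes were higher and 574 lower, of which 13 and 18 in the other lists and 0 members. In that fit 1 residual degree of freedom is left and control replicate 3 has no partner. Deviations from the group mean correlated across genes between same-numbered libraries (r = 0.281 and 0.296). With 2 deletion-labelled libraries these deviations are mirror images, so differently numbered pairs gave -0.281 and -0.296. Both values therefore rest on the same difference and cannot show that numbers pair libraries. The labels do not say that a number marks a shared litter or day. The cause of these changes was not tested. Among members the SE did not follow depth, with the largest for Fkbp5 (0.45, at least 1378 counts per library) and the smallest for Ndrg1 (0.17, at least 345).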
